A study of Homo sapiens with 10 samples.

Results

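The 2 arrays described here read RNA of MM.1S cells that carried a hairpin against luciferase, titled MM.1S_shLuc in the labels. They are 2 of the 10 arrays of the series and were taken by that title alone, with no value used. MM.1S is an established human multiple myeloma line, a tumour of plasma cells, in which t(14;16) brings the transcription factor gene MAF under control of the immunoglobulin heavy chain locus. The other 8 arrays carried hairpins against the histone deacetylase HDAC3 (shHDAC3#1 and shHDAC3#2) or the DNA methyltransferase DNMT1 (shDNMT1#1 and shDNMT1#2), with 2 arrays per hairpin. In all 5 groups the hairpin was delivered by lentivirus and total RNA was taken 48 h after infection, so the shLuc cells were infected cells with a hairpin that has no human target, not untouched cells. The labels call shLuc the control of the HDAC3 hairpins. They do not say that the replicates came from separate cultures, and the spread between them may therefore be technical. The levels below are a description of shLuc cells without a test, and the other groups appear only to place the order of levels and the gap between replicates.

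Plasma cells are the antibody factories of the B lineage. When a B cell becomes a plasma cell, IRF4 and PRDM1 shut down the B cell programme, and XBP1, a transcription factor switched on by stress of the endoplasmic reticulum (ER), enlarges the machinery that folds and exports immunoglobulin. Myeloma cells keep much of this programme, and groups of myelomas differ by the gene that a translocation joins to an immunoglobulin locus.

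Each of 19775 genes was read by 1 probe set, and a level is its log2 signal. Paired values are shLuc replicate 1 and then replicate 2. A percentile is the share of all genes with a lower mean level. The arrays hold no detection call, so the 95th percentile of 82 olfactory receptor genes, which plasma cells are not known to use, served as a mark of dim signal. This mark, called the olfactory receptor level below, stood at 6.78, and 8244 genes (41.7%) were above it. The median gene stood at 6.38 and the 90th percentile of all genes at 8.45. The order is one of probe set signals and not of RNA molecules, since probe sets differ in how strongly they bind. Among the 10523 genes with more than 1 probe set, the brightest and the dimmest probe set of a gene differed by a median of 1.98 log2 units (quartiles 0.970 and 3.20). Between the 2 arrays the differences of genes had an SD of 0.181, equal to 0.128 for 1 array, so neighbours in the order that lie closer than this cannot be ranked.

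All 6 markers of the plasma cell state were at or above the 96.1th percentile, read by the brightest probe set. With the average of a gene's probe sets, IRF4 was at the 61.5th and MAF at the 76.9th percentile, and the other 4 were at or above the 92.7th. TNFRSF17, the receptor BCMA that passes survival signals to plasma cells, had 10.66 and 10.62 and was at rank 197. XBP1 had 10.40 and 10.46 (rank 235). MAF had 10.37 and 10.33 (rank 262). These 3 markers differed by less than 0.1 between the arrays. SDC1, the proteoglycan CD138 used to recognise plasma cells, had 9.58 and 9.54 (rank 608). IRF4 had 9.44 and 9.50 (rank 679). PRDM1, which encodes the repressor BLIMP-1, had 9.46 and 9.19 (rank 776), the widest gap of the markers. Over all 10 arrays the markers stayed above the olfactory receptor level, with PRDM1 between 8.37 and 9.80, IRF4 between 8.71 and 9.64 and MAF between 9.55 and 10.90.

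The probe sets of a marker did not all give the same picture. TNFRSF17 had 1 probe set, both probe sets of SDC1 and all 3 of PRDM1 were above the olfactory receptor level, and MAF had 4 of 6 above it. IRF4 had means of 9.47, 6.46 and 2.58 on its 3 probe sets, and XBP1 had 10.43 and 5.72 on its pair. The levels of these genes rest on the brightest probe set, by the rule for choosing 1 probe set per gene.

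**Figure D1:**
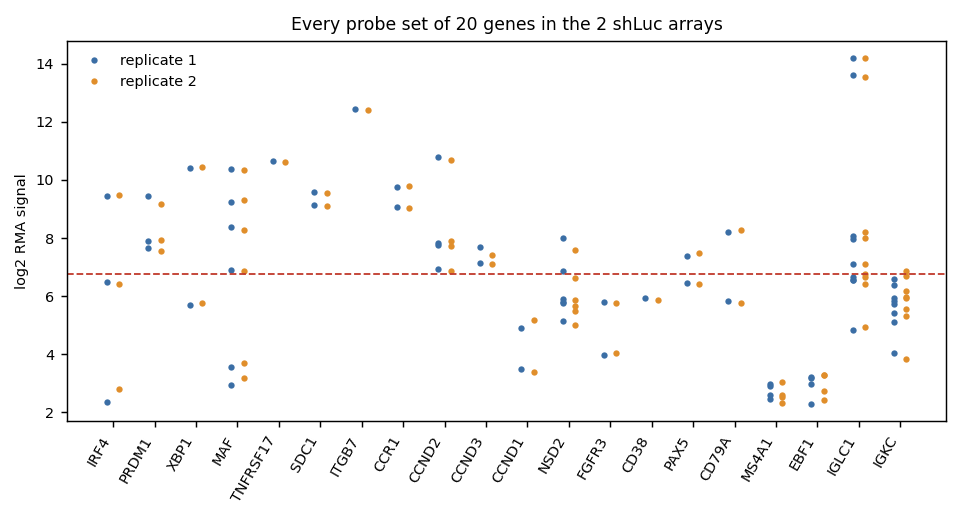
Log2 RMA signal (vertical axis) of every probe set of 20 genes, with shLuc replicate 1 in blue and replicate 2 in orange, and the olfactory receptor level of 6.78 as the dashed line. Probe sets of 1 gene lie up to several log2 units apart, as for MAF from 10.35 to 3.07, while the arrays lie close together, and all 4 probe sets of MS4A1 and of EBF1 stand well below the line.

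Of 13 regulators of the plasma cell state, 12 were above the olfactory receptor level, against 41.7% of all genes, and 8 were at or above the 90th percentile. Their median percentile was 96.6. MYC, the growth regulator that is often deregulated in myeloma, led with 11.14 and 11.00. TENT5C, a poly(A) polymerase that lengthens the tails of secretory mRNAs, had 10.85 and 10.86. POU2AF1, the coactivator of octamer factors at immunoglobulin promoters, had 10.62 and 10.70. MEF2C, a MADS box transcription factor of B cells, had 10.30 and 10.36. MYC, TENT5C and POU2AF1 were brighter than XBP1 in both arrays, and MEF2C was too close to XBP1 to be ranked. The Ikaros family members IKZF1 (8.39 and 8.30) and IKZF3 (7.58 and 7.38), which lenalidomide directs to the ubiquitin ligase receptor CRBN, were lower on this list. ZBTB20, a zinc finger factor of plasma cells, averaged 5.98, and none of its 12 probe sets was above the olfactory receptor level.

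Surface and secretory markers of plasma cells reached further up. Of 21 measured, 19 were above the olfactory receptor level, against 41.7% of all genes, and 15 were at or above the 90th percentile. Their median percentile was 96.9. JCHAIN, which joins IgA and IgM into multimers, had 13.27 and 13.16 and was among the 30 highest genes. ITGB7, the integrin beta 7 chain, had 12.45 and 12.42. PIM2, a survival kinase, had 10.54 in both arrays. CD44, an adhesion receptor, had 10.32 and 10.27. SLAMF7, the target of elotuzumab, had 9.80 and 9.81. Both exceptions were surface proteins of plasma cells and B cells. CD38, the ectoenzyme used to gate plasma cells, had 5.92 and 5.89 on its only probe set, and CD27, a memory B cell and plasma cell receptor, had 3.72 and 3.76 on its only probe set.

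Lambda and kappa light chain probe sets differed widely in their highest signals. IGLC1, a lambda constant region gene, had 14.20 and 14.18 and was the highest of all 19775 genes. IGLV1-44, a lambda variable gene, had 13.02 and 13.05. IGKC, the kappa constant region gene, had 6.58 and 6.87, and the means of all 8 of its probe sets were below the olfactory receptor level. IGKV1OR2-118, the other kappa gene with a probe set of its own, had 6.75 and 6.91, a mean just above that level. The MM.1S line is known as a producer of lambda light chain. Among probe sets annotated to several immunoglobulin genes, 7 of 11 lambda probe sets were above the olfactory receptor level and the brightest had 13.34 and 13.26, while none of 11 kappa probe sets was, the brightest having 6.61 and 6.68. Of 34 heavy chain probe sets with several genes, 16 were above it, against 41.7% of all genes by their brightest probe set. The brightest of the 34 had 9.47 and 9.45. IGHM, the mu constant region, had 8.24 and 8.38, IGHG1, a gamma constant region, had 7.09 and 7.25, and IGHA1, an alpha constant region, had 5.79 and 5.91. Only 1 of 5 probe sets of IGHM and 1 of 5 of IGHG1 averaged above the olfactory receptor level. The next probe set of IGHM averaged 6.55. No heavy chain class stood out the way lambda did among the light chains. Immunoglobulin genes are near copies of each other, so a probe set can read several of them, and single genes here are uncertain.

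The 30 highest genes were mainly those of the translation apparatus. They held 23 cytosolic ribosomal protein genes, led by RPL41 (13.98 and 14.01), RPL37A (13.62 and 13.71) and RPS24 (13.64 in both arrays). The other 7 were IGLC1, IGLV1-44, JCHAIN, EEF1A1, TPT1, PPIA and COX2. EEF1A1, the elongation factor that brings aminoacyl-tRNA to the ribosome, had 13.83 and 13.77. TPT1, a growth-related protein whose mRNA is translated like those of ribosomal proteins, had 13.69 and 13.67. PPIA, the cyclophilin A prolyl isomerase, had 13.48 and 13.46. COX2, the mitochondrially encoded subunit of cytochrome c oxidase, had 13.41 and 13.42. JCHAIN and the immunoglobulin genes were thus the plasma cell products in this group. Of the 30 probe sets, 11 have names ending in _x_at and 17 in _s_at, which mark probes that can bind related transcripts, and ribosomal protein genes have many pseudogenes. Over all 57 genes with ribosomal protein symbols the median level was 12.71. Against 41.7% of all genes, 55 of these 57 were above the olfactory receptor level. Below it were RPL36A (3.13 and 2.90) and RPL3L, a muscle form, with 5.96 and 6.09. The 30 highest genes shared 27 members with the 30 highest of each of the 4 knockdown groups. Spearman's rho over the 19775 genes between the mean levels of shLuc and of a knockdown group lay between 0.978 and 0.990, as a description across genes, which share their probe sets in all arrays and are not independent replicates.

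Genes of the secretory route filled the upper part of the order. Over 4 lists with 131 genes, 115 (87.8%) were above the olfactory receptor level and 82 were at or above the 90th percentile, where all genes had 41.7% and 1977 of 19775. The median percentiles were 97.9 for the translocon, signal peptidase and glycosylation genes, 96.6 for ER chaperones and folding enzymes, 91.3 for ER degradation and stress sensors and 88.4 for ER to Golgi transport.

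Of 34 translocon and glycosylation genes, 32 were above the olfactory receptor level. SPCS1, a subunit of the signal peptidase that trims entering proteins, had 12.22 and 12.17. SRP9, of the signal recognition particle, had 11.77 and 11.79. RPN2, of the oligosaccharyltransferase, had 11.13 and 11.18. The 2 members below the mark belong to pairs of paralogs. SEC61A2 had 5.35 and 5.49, against 8.92 and 8.74 for its paralog SEC61A1, the pore of the translocon. TUSC3 had 4.08 and 4.17, against 9.70 and 9.55 for its paralog MAGT1, and both encode oxidoreductase subunits of the oligosaccharyltransferase. Probe sets differ in binding strength, so these gaps of over 3 log2 units are gaps in signal.

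Of 30 ER chaperones and folding enzymes, 28 were above the olfactory receptor level. PPIB, the cyclophilin B prolyl isomerase, had 11.04 and 11.18. CANX, the lectin chaperone calnexin, had 10.88 and 10.73. HSPA5, the chaperone BiP that holds unpaired heavy chains, had 10.73 and 10.75. HSP90B1, the chaperone GRP94, had 10.35 and 10.70, the widest gap among these leaders. MZB1, a cofactor of antibody secretion, had 10.22 and 10.36. ERO1B, an oxidase that restores protein disulfide isomerase, had 4.74 and 4.78 and was the lowest, while its paralog ERO1A had 7.76 and 7.59. FKBP14, a prolyl isomerase known for collagen folding, had 5.74 and 5.72.

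Among ER stress sensors, ERN1, the kinase and nuclease IRE1 that splices XBP1 mRNA, had 8.43 and 8.33. EIF2AK3, the kinase PERK, had 9.01 and 8.75. ATF6, the membrane-bound transcription factor, had 8.08 and 7.81. All 3 sensors were above the olfactory receptor level. ATF4, the transcription factor translated when PERK is active, had 10.04 and 10.06, whereas DDIT3, which encodes the stress factor CHOP, had 6.44 and 6.41 and lay below the mark. A probe set level does not tell spliced from unspliced XBP1.

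The last steps of the route were more mixed, with 33 of 42 transport genes above the mark. TMED9, a cargo receptor, had 10.14 and 10.22. KDELR1, the receptor that returns escaped chaperones, had 10.13 and 10.06, and its paralog KDELR3 had 4.74 and 4.67. Proteasome subunits, which degrade misfolded proteins sent back from the ER, were all above the olfactory receptor level (31 of 31), against 41.7% of all genes. Of these subunits, 27 were at or above the 90th percentile. PSMB5, the subunit that bortezomib blocks, had 8.73 and 8.61.

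**Figure D2:**
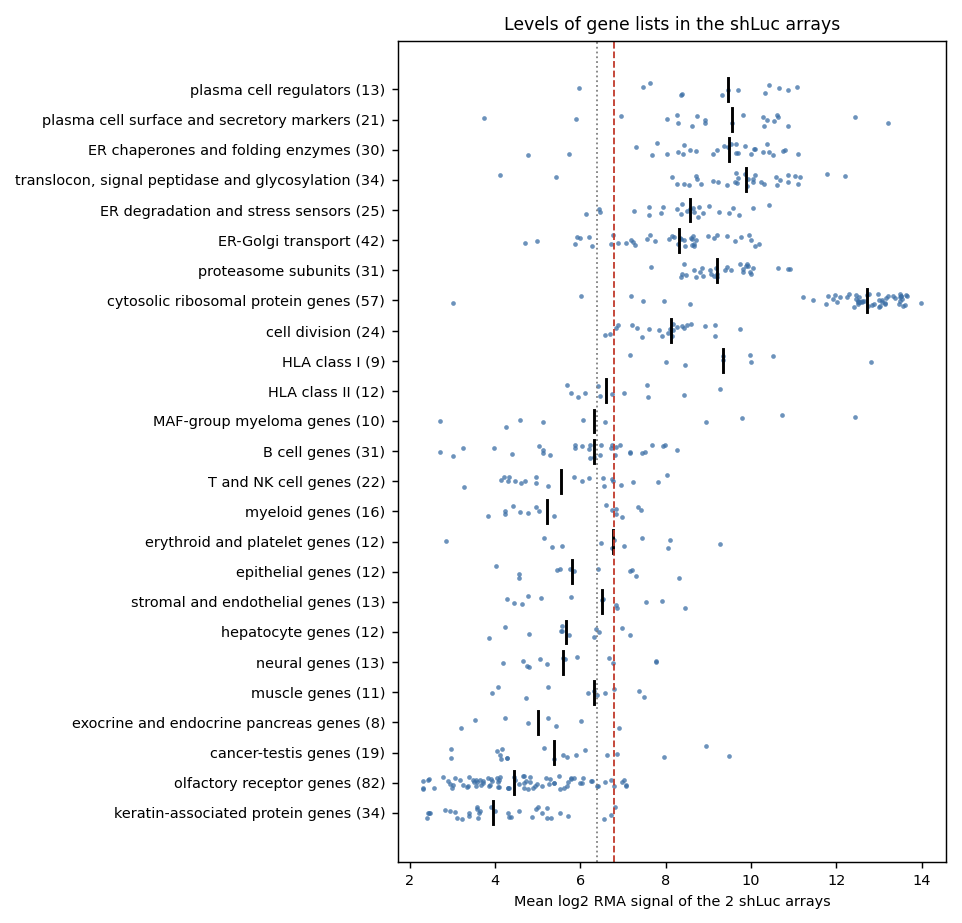
Mean log2 RMA signal of the 2 shLuc arrays (horizontal axis) for every measured gene of 25 lists, with 1 point per gene, the number of genes in brackets and the list median as a black bar. The dashed line is the olfactory receptor level of 6.78 and the dotted line the median of all genes, 6.38; plasma cell, secretory, proteasome and ribosomal lists have medians above 8, and B cell and other lineage lists have medians below 6.78.

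The ER stress response element is a known binding site of XBP1, ATF6 and the factor NF-Y in promoters of ER chaperone genes. It was sought in RefSeq promoters (GRCh38.p14) of 250 bases before and 50 after the start, as CCAAT, 9 bases of any kind and CCACG (ERSE) or as ATTGG, 1 base of any kind and CCACG (ERSE-II), on both strands and in every promoter of a gene. ERSE was in 18 of 15382 genes with a promoter (0.117%), ERSE-II in 19 (0.124%), and no gene held both. Of 28 ER chaperone genes with a promoter, 7 had ERSE and 2 had ERSE-II (32.1% with either). The element is known from promoters of such genes, so this share describes them and is no independent result. The following stretches of 100 bases are shown because their genes make up the folding and degradation machinery described above, with the element in capitals. They lie at chr9:125241351-125241450 on the minus strand for HSPA5, at chr12:103930280-103930379 on the plus strand for HSP90B1, at chr19:12938359-12938458 on the plus strand for CALR and at chr22:28800570-28800669 on the minus strand for XBP1, all with ERSE. ERSE-II is in HERPUD1 at chr16:56931980-56932079 (plus strand), in HYOU1 at chr11:119057230-119057329 (minus strand) and in SDF2L1 at chr22:21642069-21642168 (plus strand). Each is written 5′ to 3′ on the strand of its gene.
HSPA5: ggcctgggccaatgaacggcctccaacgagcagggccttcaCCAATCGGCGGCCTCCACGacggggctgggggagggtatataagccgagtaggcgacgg
HSP90B1: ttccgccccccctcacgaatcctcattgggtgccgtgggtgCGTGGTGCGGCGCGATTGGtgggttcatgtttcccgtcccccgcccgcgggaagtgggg
CALR: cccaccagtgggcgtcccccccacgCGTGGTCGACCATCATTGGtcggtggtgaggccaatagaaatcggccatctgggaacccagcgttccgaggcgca
XBP1: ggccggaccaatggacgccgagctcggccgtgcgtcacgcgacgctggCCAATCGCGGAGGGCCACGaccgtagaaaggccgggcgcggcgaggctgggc
HERPUD1: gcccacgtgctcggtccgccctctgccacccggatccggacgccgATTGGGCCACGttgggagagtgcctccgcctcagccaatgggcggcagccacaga
HYOU1: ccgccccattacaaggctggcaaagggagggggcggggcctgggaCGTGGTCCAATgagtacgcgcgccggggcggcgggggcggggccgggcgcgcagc
SDF2L1: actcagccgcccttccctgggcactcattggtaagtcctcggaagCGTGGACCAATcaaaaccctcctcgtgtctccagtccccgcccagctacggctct
In HSPA5, XBP1 and HERPUD1 the element shown reads in the direction of the gene, and in the other 4 it is reversed. The promoters of HSP90B1 and HYOU1 hold 2 elements each, of which 1 is shown. In XBP1 it ends 33 bases before the start, in HSPA5 47 bases and in CALR 206 bases.

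The levels of these genes were CALR, the chaperone calreticulin, at 9.66 and 9.64, HERPUD1, a stress-induced membrane protein of ER degradation, at 9.69 and 9.75, HYOU1, an ER chaperone of the HSP110 family, at 8.67 and 8.47, and SDF2L1, a partner of BiP, at 8.29 and 8.28. Of the 37 genes with either element, 11 were on the secretory lists. At or above the 90th percentile were 13 of the 37, where all genes had 1977 of 19775. SERP1, which steadies the translocon under stress and is on none of the lists, was one of the 13 with 10.46 and 10.54. An element did not go with a high level in every gene. ERO1B, with ERSE, had 4.74 and 4.78, and PLS3, an actin bundling protein with ERSE-II, had 2.18 and 2.26. None of 28 translocon, 39 ER to Golgi, 26 proteasome or 49 ribosomal protein genes with a promoter held either run of letters in this window. A match describes letters and shows no binding.

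Other features of the promoters differed along the level order. The number of CpG dinucleotides per promoter of 300 bases had a median of 10 in genes below the 25th percentile, 20 from the 25th to the 50th, 25 from the 50th to the 75th and 27 in both bins above. Olfactory receptor promoters had a median of 1.5. Single high genes spread widely, with 0 CpG in the promoter of JCHAIN, 16 in MAF, 32 in IRF4 and 40 in XBP1. The pyrimidine start of ribosomal protein and other translation genes, here a C followed by 4 pyrimidines from the first transcribed base, was in 8.70% of promoters at or above the 90th percentile and in 4.51% of all 15382. It was in 34 of 49 ribosomal protein genes (69.4%) and in 15 of the 23 highest genes with a promoter (65.2%). EEF1A1 and TPT1 were among these 15. A TATAAA within 50 bases before the start was in 5.57% of promoters below the 25th percentile, 3.68% from there to the 50th, 1.90% to the 75th, 1.73% to the 90th and 2.03% above.

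**Figure D3:**
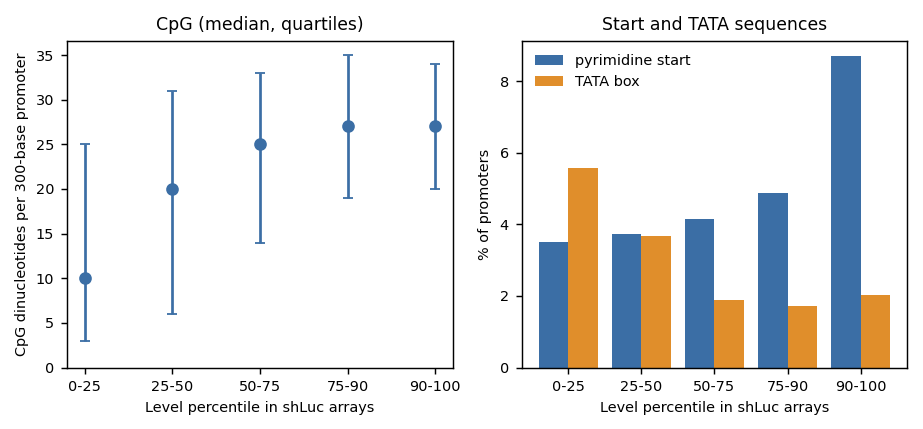
Features of RefSeq promoters by level percentile of their genes in the shLuc arrays (horizontal axes). The left panel gives CpG dinucleotides per promoter as median (point) and quartiles (bars), with medians of 10, 20, 25, 27 and 27. The right panel gives the percentage of promoters with a pyrimidine start (blue, highest in the top bin at 8.70%) and with a TATA box in the 50 bases before the start (orange, highest in the lowest bin at 5.57%).

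MAF stood alone among its neighbours on chromosome 16. Of the 10 measured genes next to it, 5 on each side, 3 were above the olfactory receptor level, against 41.7% of all genes. The means of the 10 lay between 3.08 and 7.78, where MAF averaged 10.35. WWOX, the tumour suppressor gene beside MAF in which translocation breakpoints often fall, was the highest of them with 7.68 and 7.88. Of the MAF family, MAFG (8.37 and 8.46) and MAFF (7.00 and 7.01), small MAF proteins that pair with other factors, and NRL (6.77 and 7.00), the photoreceptor member, were lower than MAF.

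Genes known to mark MAF myelomas fell into high and low ones. Of 10, 4 (40%) were above the olfactory receptor level, against 41.7% of all genes, and all 4 were also at or above the 90th percentile. These were ITGB7, given above, CCND2, the cyclin that MAF is known to drive, with 10.79 and 10.68, CCR1, a chemokine receptor, with 9.77 and 9.78, and ARID5A, an RNA-binding regulator, with 8.95 and 8.92. All 4 probe sets of CCND2 and both of CCR1 were above the mark. The other 6 were below it. NUAK1, an AMPK-related kinase, had 6.49 and 6.68, and CX3CR1, the fractalkine receptor, had 5.03 and 5.20. SPP1, which encodes osteopontin, was the lowest with 2.75 and 2.66. The whole list had a median percentile of 49.1, near the middle of all genes.

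The 8 genes listed for other translocation groups of myeloma were lower than CCND2 and MAF. MYC, given above among the regulators, was not on this list and was higher than both, with 11.14 and 11.00. CCND1, the cyclin D1 gene, had 4.91 and 5.18, and its other probe set averaged 3.44. CCND3, the cyclin D3 gene, had 7.70 and 7.43. FGFR3, a fibroblast growth factor receptor, had 5.81 and 5.78. NSD2, a histone H3 methyltransferase that shares its translocation with FGFR3, had 8.01 and 7.60, and 1 of its 6 probe sets averaged above the olfactory receptor level. Of the 8 genes of this list, 3 (37.5%) were above that mark, against 41.7% of all genes, and 0 were at or above the 90th percentile.

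B cell genes were near the middle of the order. Of 31 measured, 11 (35.5%) were above the olfactory receptor level, against 41.7% of all genes. Of the 31, 0 were at or above the 90th percentile, and the median percentile was 48.8. CD79A, a signalling chain of the B cell receptor, was the highest with 8.22 and 8.28, and its other probe set averaged 5.80. CD22, an inhibitory receptor, had 8.01 and 7.94, and 2 of its 4 probe sets were above the mark. PAX5, the factor that maintains B cell identity, had 7.39 and 7.50, and its other probe set averaged 6.45. By contrast EBF1, an early B cell factor, had 3.20 and 3.27, and MS4A1, the CD20 gene, had 2.97 and 3.04, with none of their 4 probe sets each above the mark. BCL6, the repressor of germinal centre B cells, had 5.02 and 5.22, and BACH2, which holds back PRDM1, had 6.31 in both arrays. Among antigen presentation genes, all 9 measured class I genes were above the olfactory receptor level, led by B2M, the class I light chain, with 12.82 in both arrays. Of 12 class II genes 5 (41.7%) were above it, the same share as of all genes. CD74, the invariant chain, had 9.37 and 9.18, HLA-DRA had 8.58 and 8.28, and CIITA, the activator of class II genes, had 6.61 and 6.86.

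Markers of 9 other lineages were dimmer than all genes as a group, but not in every list. Median percentiles ran from 26.6 for pancreas genes to 57.8 for erythroid and platelet genes, with 52.7 for stromal and endothelial genes. Of 119 genes 31 (26.1%) were above the olfactory receptor level, against 41.7% of all genes, and 1 was at or above the 90th percentile. This was HBD, the delta globin gene, with 9.27 in both arrays on its only probe set. HBB, the beta globin gene, had 8.16 and 7.94, whereas ALAS2, the erythroid haem enzyme, had 5.56 and 5.58. T and NK cell genes had 4 of 22 above the mark, with FOXP3 (7.95 and 8.09), the regulatory T cell factor, and CD8B (7.81 and 7.84) the highest. Only 1 of 4 probe sets of CD8B and 2 of 3 of FOXP3 were above it. The defining receptor chains CD3D (6.54 and 6.55), CD3E (5.04 and 4.89) and CD3G (4.61 and 4.62) were below the mark. Above the mark were also 5 of 16 myeloid, 5 of 12 erythroid and platelet, 4 of 12 epithelial, 5 of 13 stromal and endothelial, 3 of 11 muscle, 2 of 12 hepatocyte, 2 of 13 neural and 1 of 8 pancreas genes. LYZ, the lysozyme of myeloid cells, had 3.81 and 3.83. COL1A1, a collagen of stromal cells, had 8.34 and 8.56 on its brightest probe set, and 2 of its 5 probe sets were above the mark, while COL1A2 had 4.52 and 4.74 and COL3A1 4.14 and 4.44. Single bright members of a lineage therefore stood beside dim partners. The cells were an established line, and a bright probe set does not show that cells of another lineage were present.

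Cancer-testis genes, normally confined to germ cells, were mostly dim, with 4 of 19 (21.1%) above the olfactory receptor level, against 41.7% of all genes. CTAG2, a relative of the antigen NY-ESO-1, had 9.46 and 9.50, and MAGEA1, a MAGE antigen, had 8.99 and 8.92. These were above the 90th percentile. Both were read by probe sets with names ending in _x_at, which can bind related transcripts. The other probe set of CTAG2 averaged 7.79, below the 90th percentile level of 8.45, and MAGEA1 had only 1 probe set. MAGEC1, a frequent myeloma antigen, had 5.43 and 5.74. Of 24 cell division genes 22 were above the mark, against 41.7% of all genes. They were led by CDK1, the mitotic kinase, with 9.73 in both arrays.

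Of 16 genes that myeloma drugs act on or through, 14 were above the olfactory receptor level, against 41.7% of all genes. MCL1, the survival protein of plasma cells, had 10.00 and 9.93. XPO1, the nuclear exporter blocked by selinexor, had 9.69 and 9.61. NR3C1, the glucocorticoid receptor through which dexamethasone acts, had 9.10 and 8.90. CRBN, the receptor of lenalidomide, had 7.62 and 7.61. CD38 was below the mark, as was ABCB1, a drug efflux pump, with 3.39 and 3.57. Of 18 genes of the IL-6 axis and the marrow niche, 9 (50%) were above it, against 41.7% of all genes. Both receptor chains for the myeloma growth factor IL-6 were high, IL6ST with 9.69 and 9.66 and IL6R with 9.56 and 9.63, while IL6 itself had 5.50 and 5.64. IGF1, a growth factor usually supplied by stroma, had 8.35 and 8.15, and 4 of its 5 probe sets were above the mark, while its receptor IGF1R had 5.94 and 6.02.

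The genes that the other hairpins target stood at different places in their families. Histone deacetylases remove acetyl groups from histones and other proteins, and HDAC3 does so within the NCoR and SMRT corepressor complexes. HDAC3 had 7.26 and 6.61 in the shLuc arrays, at the 61.8th percentile, with 1 array above and the other below the olfactory receptor level. Of the 18 deacetylases and sirtuins it was at place 14. HDAC1 (8.97 and 8.90) and HDAC2 (8.90 and 8.81), paralogs of each other in NuRD and Sin3 complexes, led the family and overlapped. HDAC8, the remaining class I member, had 7.65 and 7.74 on its brightest probe set, above both values of HDAC3. Its other probe sets averaged 6.29 and 5.67, below both values of HDAC3. The order of HDAC8 and HDAC3 thus rests on the choice of probe set. SIRT4, a mitochondrial sirtuin, was the lowest with 4.56 and 4.54. Of 17 pairs of neighbours in the order, 9 overlapped between arrays, so the middle of the order is not resolved. Among partners of HDAC3, TBL1XR1 had 10.53 and 10.54, TBL1X had 8.54 and 8.40 and GPS2 had 7.72 and 7.41.

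DNMT1, which copies methylation to the new DNA strand, had 8.49 and 8.33 and was at the 89.6th percentile, the highest of the DNA methyltransferase genes measured. Among its partners, UHRF1, which brings DNMT1 to hemimethylated sites, had 8.74 and 8.51. The de novo enzymes DNMT3A (6.60 and 6.65) and DNMT3B (6.17 and 5.94) were below the olfactory receptor level. TRDMT1, a relative that methylates tRNA, was the lowest with 4.57 and 4.78. Of 7 pairs of neighbours 1 overlapped. HDAC3 and DNMT1 each had only 1 probe set with a single symbol, and its name ends in _s_at.

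**Figure D4:**
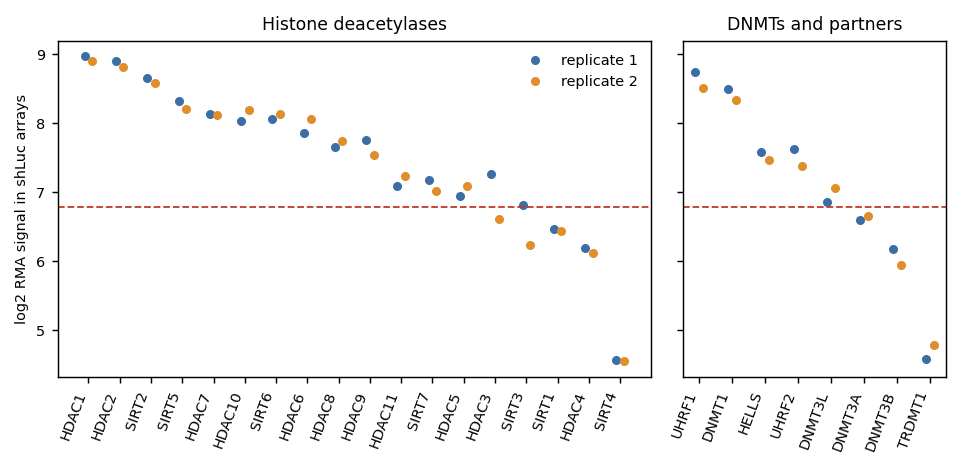
Log2 RMA signal (vertical axis) in shLuc replicate 1 (blue) and replicate 2 (orange) of 18 histone deacetylases and sirtuins and of 8 DNA methyltransferases and partners, ordered by mean level, with the olfactory receptor level of 6.78 dashed. HDAC3 has the widest gap between arrays of the deacetylases (7.26 and 6.61), and DNMT1 lies next to UHRF1 at the top of its panel.

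The arrays were close to each other, with Pearson's r of 0.995 across genes, and 160 of 19775 genes differed by more than 0.5. Of these, 112 were higher in replicate 1. Among the largest differences were those of known immediate early genes, which respond quickly to growth signals and stress. FOS, a subunit of the AP-1 factor, had 6.57 and 5.19. JUN, its partner, had 9.13 and 8.11. DUSP1, a phosphatase of MAP kinases, had 8.56 and 7.57, and RHOB, a small GTPase that is rapidly induced, had 8.88 and 7.78. SAMD15, a gene of little known function, had 6.57 and 5.30. The remaining 5 of the 10 largest differences lay between 0.78 and 1.00 in LOC101926915, OR5P2, ENKUR, BAGE2 and STYX. These 5 genes were all below the olfactory receptor level in both arrays, as were FOS and SAMD15. In the other 4 groups the replicates differed by 0.00 to 0.53 for FOS and by at most 0.13 in size for JUN. The largest differences in size there were 0.40 for DUSP1 (shHDAC3#2) and -0.38 for RHOB (shHDAC3#1). The gap was not in every probe set of these genes. Of the 4 probe sets of JUN, the next by level had 7.55 and 7.51, and the third had 6.22 and 5.42. The next probe set of DUSP1 had 7.04 and 7.01, and that of RHOB had 6.28 and 6.33, with no gap like that of the brightest. Of 23 other immediate early genes, a list drawn up after the values of FOS and JUN were seen, 14 were higher in replicate 1, with a median difference of 0.03. Among the 12 of them above the olfactory receptor level, 10 were higher in replicate 1, by a median of 0.19, against 4 of the 11 below it. ZFP36, which destabilises mRNAs, had 8.63 and 8.23, and JUNB, an AP-1 subunit, had 7.95 and 7.55. EGR1, a zinc finger factor, had 4.10 and 4.28. HDAC3, with a difference of 0.65, was at place 34 of all genes by size of the difference. In the other 4 groups HDAC3 was also higher in replicate 1, by 0.11 (shDNMT1#2) to 0.56 (shDNMT1#1).

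Smaller shifts ran through whole lists. Cell division genes were higher in replicate 1 in 21 of 24 cases, by a median of 0.13, with MKI67, the proliferation antigen, at 8.29 and 7.81. ER degradation genes were higher in 20 of 25, by a median of 0.12. Ribosomal protein genes were higher in replicate 1 in 13 of 57, and myeloid genes in 0 of 16. Over all genes, the share higher in replicate 1 was 43.0% below the 25th percentile, 38.7% from there to the 50th, 41.7% to the 75th, 51.2% to the 90th and 60.7% above. The ribosomal protein genes, nearly all in the top bin, went against its direction. The SD of the difference was 0.129 in the top bin and 0.190 in the lowest. The 3′ minus 5′ difference of ACTB, a measure of RNA integrity, was 0.70 and 0.75, and that of GAPDH 0.42 and 0.37. The part of these values in the list shifts was not tested.

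**Figure D5:**
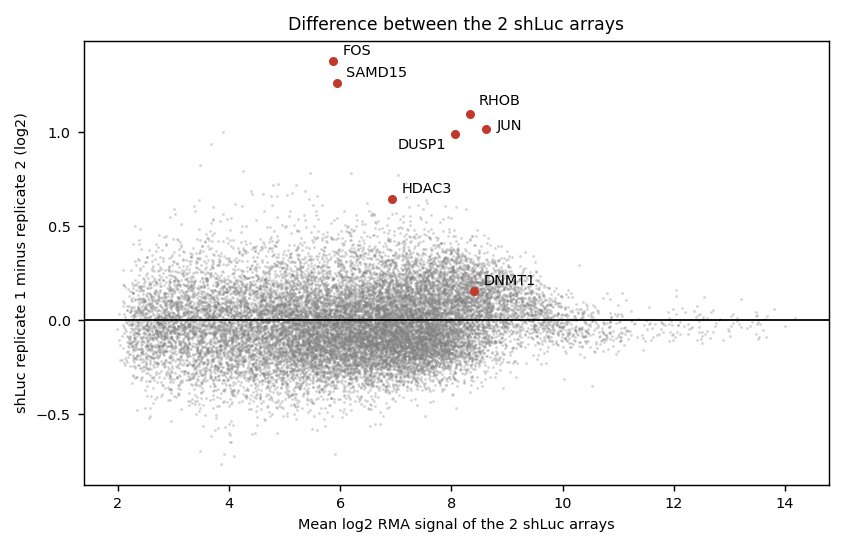
Difference between shLuc replicate 1 and replicate 2 (vertical axis, log2) against the mean log2 RMA signal of the 2 arrays (horizontal axis), with 1 grey point per gene and 7 named genes in red. FOS, SAMD15, RHOB, JUN and DUSP1 stand about 1 log2 unit or more above 0, HDAC3 lies at 0.65, and the band of points narrows at high levels.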

How the data were processed

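RNA of 10 arrays of MM.1S cells was measured on an Affymetrix 3′ expression array. The authors deposited log2 values for 54675 probe sets, and the tool named in the submitters' processing notes is RMA, its version not given in the sources used here. RMA corrects background, quantile-normalizes between arrays and summarises probes, which compresses dim signals. The number of arrays limits the precision.

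From the platform annotation, 41097 probe sets had 1 symbol, 1801 had several and 11777 none. Probe sets without a single symbol enter the text as classes only. RefSeq (GRCh38.p14) gene IDs matched 41043 probe sets and changed 0 symbols. Each gene took the probe set with the highest mean of the 10 arrays. Genes were ranked by their mean of the 2 shLuc arrays, with no filter and no test. Promoters came from RefSeq, and bases were counted in the first promoter listed for a gene. Named genes were the 6 markers, the 30 highest, members of 33 gene lists (510 of 562 entries of the 30 lists set by hand were measured), the 10 largest differences between the arrays, and both targets with their paralogs. These members and lists were chosen with earlier results of these data known. Alternatives were other ways to choose a probe set, a further quantile normalization, other marks of dim signal and each array alone. Ranking was checked on simulated data. Python 3.11.15, pandas 2.3.3, numpy 2.4.6, scipy 1.17.1 and matplotlib 3.10.9 were used.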

Additional observations from a re-analysis of the deposited data

How the results depend on the processing

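With the average over all probe sets in place of the brightest, the median percentile of the plasma cell regulators was 73.1 in place of 96.6, that of the surface and secretory markers 95.7 in place of 96.9, that of the ER chaperones 95.04 in place of 96.6, and the SD of the difference between the arrays 0.153 in place of 0.181. IRF4 was then at the 61.5th and MAF at the 76.9th percentile, because their dim probe sets enter the mean. Without probe sets that can cross-hybridize, these list medians were 95.7, 98.2 and 95.8, over 16790 genes. The median of the B cell genes, 48.8, was 48.2 with the average and 49.1 without those probe sets, and moved more with replicate 1 alone, to 50.2. HDAC3 and DNMT1 have no value without the probe sets that can cross-hybridize. With either array alone, the medians ran from 96.4 to 96.8 for the regulators, stayed at 96.9 for the surface markers, and ran from 96.6 to 96.7 for the ER chaperones and from 48.5 to 50.2 for the B cell genes, while HDAC3 was at the 54.4th or the 68.9th percentile. The count of genes above the mark of dim signal, 8244, ran from 5579 without cross-hybridizing probe sets to 9890 with the 90th percentile of the olfactory receptor genes as the mark. The brightest probe set of the shLuc arrays and a further quantile normalization moved none of these results beyond the spread between the arrays. A filter on dim probe sets was not run, since it would remove the genes that the count is about. No paired analysis was possible because levels of 1 group were described and no test was made. With 2 arrays of 1 group, which may be technical repeats, the spread between cultures is unknown, and dim signals of RMA have no detection limit.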
